A study of Mus musculus with 52 samples.

Results

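The complement system was followed through 9 genes (C1qa, C1qb, C1qc, C2, C3, C4b, Cfb, Cfd and Serping1) in mice without the long noncoding RNA gene Tug1. They were found by gene symbol in every tissue of the tables, which hold 39144 genes in all, and gave 70 of 72 possible rows. Cfd had no row in brain and in mouse embryonic fibroblasts (MEFs). Poly(A) RNA of male mice was sequenced in bulk. In Tug1-/- mice (allele Tug1_tm1.1Vlcg) a lacZ reporter, driven by the Tug1 promoter, takes the place of most of the gene after its first exon. By the labels, the group means rest on 4 wild-type, 4 Tug1-/- and 3 rescue testes, on 3 wild-type and 2 Tug1-/- prostates, and on 3 samples per genotype for eyes, heart, liver, spleen and MEFs. Brain means came from libraries outside the listed samples. The labelled background of the tissues and MEFs was C57BL/6J/129S6 in both genotypes, marked as N3-C57BL/6J and without Neo. In testes, wild-type mice were labelled no Neo, while Tug1-/- and rescue mice were labelled Neo, LacZ, so this difference and the Tug1 genotype cannot be told apart there. Rescue mice were Tug1-/- with a randomly integrated, tetracycline-responsive Tug1 transgene, tg(Tug1), and with CAGs-rtTA3, which drives the activator broadly. They were kept on doxycycline food from conception, so the transgene and the drug cannot be told apart. MEFs were primary cultures from littermate embryos. The ages of the adult animals were not given in the sources used here.

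Complement is a cascade of plasma proteins that tags microbes and cell debris for removal. C1q, built from the products of C1qa, C1qb and C1qc, binds immune complexes and dying cells and starts the classical pathway, which cleaves C4 and C2 to form a convertase that splits C3. The alternative pathway works through factor B (Cfb), which is cleaved by factor D (Cfd), also known as adipsin for its high production by fat cells. C1 inhibitor (Serping1) blocks the proteases that C1q carries. Hepatocytes make most circulating C3, C4, C2 and factor B, whereas C1q is made chiefly by macrophages, microglia and dendritic cells. In brain, C1q and C3 are also known for marking synapses for removal by microglia.

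In the coordinates of the tables (GRCm38), the 3 C1q genes lie side by side on the minus strand of chromosome 4 in the order C1qb (136880129 to 136886187), C1qc (136889804 to 136893065) and C1qa (136895917 to 136898803), within 18675 bp. C4b (34728380 to 34743882), Cfb (34856374 to 34862518) and C2 (34862604 to 34898265) lie on the minus strand of chromosome 17, with 85 bp between Cfb and C2. C3 lies further along chromosome 17 (57203970 to 57228136, minus strand), Cfd on chromosome 10 (79890853 to 79892655, plus strand) and Serping1 on chromosome 2 (84765387 to 84775444, minus strand). C2 overlaps Zbtb12 on the opposite strand, and the use of strand in counting was not stated, so reads in the shared stretch cannot be assigned with certainty. Zbtb12 was at 4.01 TPM in wild-type testes and 23.2 TPM in wild-type spleen. In a later annotation of the same build (GENCODE vM21) the gene model Gm20547 spans parts of both Cfb and C2 (34856412 to 34882042). It had no row in the tables, and its part in the values of Cfb and C2 was not tested.

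RefSeq (GRCm38.p6) promoter sequences were matched for 4 of the 9 members, C1qb, C1qc, C3 and Cfd, and all of these are shown to give the letters before each start. The 250 bases before the annotated start are given 5′ to 3′ on the strand of the gene, with C1qb at chr4:136886201-136886450 (minus strand), C1qc at chr4:136892915-136893164 (minus strand), C3 at chr17:57228137-57228386 (minus strand) and Cfd at chr10:79890603-79890852 (plus strand). For C3 and Cfd this start is that of the tables and for C1qb it lies just outside their gene, whereas 151 bases of the C1qc window lie inside the gene as the tables give it. Distances are counted from the RefSeq start. Capitals mark every match, on either strand, to any of 6 motifs searched.
C1qb: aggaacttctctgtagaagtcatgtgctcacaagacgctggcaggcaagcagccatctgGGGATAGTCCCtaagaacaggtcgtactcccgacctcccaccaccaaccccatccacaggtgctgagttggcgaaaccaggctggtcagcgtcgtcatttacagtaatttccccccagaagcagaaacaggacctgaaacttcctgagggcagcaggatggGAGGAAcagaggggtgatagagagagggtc
C1qc: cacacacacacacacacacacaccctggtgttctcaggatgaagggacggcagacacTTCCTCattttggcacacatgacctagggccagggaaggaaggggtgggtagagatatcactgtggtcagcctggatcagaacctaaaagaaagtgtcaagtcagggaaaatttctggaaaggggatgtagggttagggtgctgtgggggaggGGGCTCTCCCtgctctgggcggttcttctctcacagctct
C3: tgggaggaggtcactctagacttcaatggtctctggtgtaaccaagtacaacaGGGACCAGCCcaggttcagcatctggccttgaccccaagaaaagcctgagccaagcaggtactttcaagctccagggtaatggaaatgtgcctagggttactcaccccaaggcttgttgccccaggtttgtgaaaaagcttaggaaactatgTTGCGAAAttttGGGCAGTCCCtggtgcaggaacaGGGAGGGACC
Cfd: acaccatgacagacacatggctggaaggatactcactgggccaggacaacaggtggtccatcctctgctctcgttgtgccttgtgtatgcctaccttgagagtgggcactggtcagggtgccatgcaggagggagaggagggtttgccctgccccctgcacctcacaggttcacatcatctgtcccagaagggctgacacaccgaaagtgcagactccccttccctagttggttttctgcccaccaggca
The motifs were the TATA box (TATAAA, in 12.4% of 32851 promoter windows of the same length), the PU.1 core (GAGGAA, 23.3%), the STAT motif GAS (7.02%), the C/EBP motif (9.56%), an NF-kB motif (17.6%) and an interferon response motif (2.98%). PU.1 is the factor that defines the myeloid lineage, and its core was found 30 to 25 bases before the start of C1qb on the strand of the gene and 193 to 188 bases before that of C1qc on the opposite strand. The window of C3 held 1 C/EBP match, 45 to 38 bases before the start, and 3 NF-kB matches. The window of C1qb held NF-kB matches on both strands that overlap each other, and that of C1qc held 1. No letters of these 6 motifs were found in the window of Cfd.

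Levels are mean TPM, a transcript abundance scaled to gene length and library size, as the authors averaged them over the samples of a group. The values used here are group means, so no spread, interval or test is given for any mean or difference, and a group mean that rests on 1 aberrant sample could not be recognised. Tug1 itself was at 10.1 to 57.5 TPM in the wild-type means. It was left at 0.0825% to 0.512% of the wild-type mean in the 7 Tug1-/- groups other than testes and at 2.21% in testes (0.885 of 40.1 TPM). In rescue testes it was at 1.60 TPM. The defining genes of each labelled tissue were high in their own tissue, for example Pbsn in prostate, Cryaa in eyes, Myh6 in heart and Prm1 in testes. Some markers of other tissues differed between genotypes. In spleen Spink1, a prostate and pancreas gene, was listed at 0 in wild-type and at 68.8 TPM in Tug1-/- spleen, and the summed hepatocyte markers were at 40.7 TPM in wild-type against 8.41 TPM in Tug1-/- spleen (Alb 16.4 and 0.0843 TPM). The summed liver markers were at 8.22 and 62.8 TPM in prostate through Cyp2e1 (8.08 and 62.2 TPM), and the summed heart markers at 247 and 451 TPM in eyes through Actc1, the cardiac actin (244 and 448 TPM). The summed testes markers were at 8.96 and 36.5 TPM in liver through Cyp17a1 (6.75 and 34.2 TPM). The part of these markers in the values of the members was not tested. The mean normalized counts per library, summed over genes, ran from 17573743 in brain to 48341823 in eyes, and the depth in testes is unknown.

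In wild-type mice the members fell into 3 patterns across tissues. The 3 C1q genes were highest in spleen (C1qa 709, C1qb 665 and C1qc 384 TPM) and lowest in testes (13.6, 22.2 and 8.37 TPM). Between these, C1qa was ordered MEF (132 TPM), brain (107), heart (99.4), eyes (90.7), liver (56.3) and prostate (50.4), and neighbours in this order differed by 1.07 to 1.61 times from MEF down to prostate. C1qb and C1qc had the same order of tissues as C1qa. Without a spread, none of these neighbours can be separated.

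The liver-made components formed a second pattern, with C3, C4b, C2, Cfb and Serping1 each highest in liver, second in spleen and lowest in MEFs. C3, the central protein of the cascade, was at 3216 TPM in wild-type liver, 601 in spleen, 160 in heart, 37.3 in prostate, 30.8 in eyes, 16.3 in testes, 1.12 in brain and 0.424 in MEFs. C4b, the C4 component, was at 381 TPM in liver, 118 in spleen, 70.3 in eyes, 21.5 in heart, 15.1 in testes, 12.1 in brain, 7.14 in prostate and 0.0441 in MEFs. C2, the protease that joins C4 in the convertase, had a narrower range, from 30.7 TPM in liver through 17.3 in spleen and 15.8 in eyes to 1.27 in brain and 0.520 in MEFs. Cfb was at 54.7 TPM in liver and 10.2 in spleen, at 1.18 in eyes, and under 0.5 TPM in the wild-type means of the other 5 tissues. Serping1 was at 720 TPM in liver, 201 in both spleen and eyes, 134 in heart, 106 in prostate, 36 in testes, 14.6 in brain and 8.53 in MEFs. C4b was 5.51 to 231 times its close copy C4a in the groups other than MEFs, and C4a was at 2.58 TPM in wild-type testes and 5.45 TPM in wild-type liver. Reads shared by C4a and C4b were not counted where they could not be placed uniquely, so both levels are uncertain.

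Cfd stood alone in the third pattern. Its wild-type level was highest in heart (135 TPM), then eyes (89.2) and prostate (66.2), and much lower in testes (5.54), spleen (5.14) and liver (0.698).

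**Figure D1:**
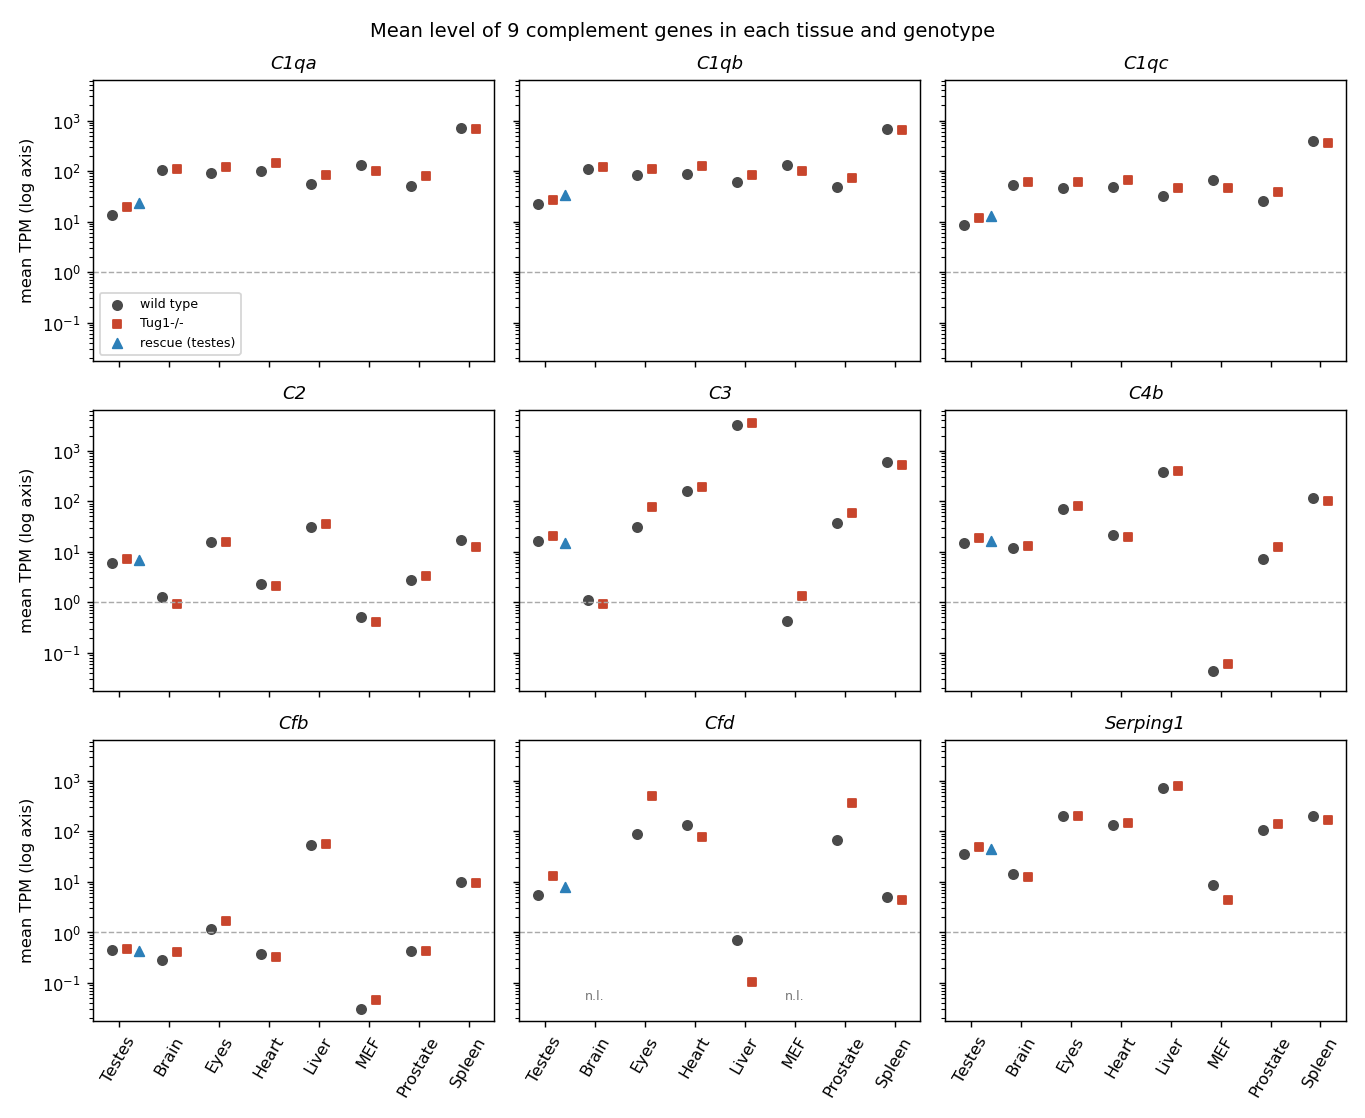
Mean TPM (log axis) of the 9 complement genes in each tissue, with circles for wild type, squares for Tug1-/- and triangles for rescue testes. The dashed line marks 1 TPM and n.l. marks a tissue in which the gene has no row; the C1q genes are highest in spleen, the liver-made components in liver, and Cfd in heart in wild type but in eyes (492 TPM) in Tug1-/- mice.

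To ask whether loss of Tug1 shifted these levels, the log2 ratio of the Tug1-/- mean over the wild-type mean was taken in each tissue after adding 0.1 TPM to both. A gene was counted where the mean of both groups was at least 1 TPM, and a ratio was called past the limit where it was over 1.5-fold in either direction. Of 61 member ratios at this level in 8 tissues, 41 were above 1, 9 were past the limit in the higher direction and 2 in the lower. Over all genes the share above 1 differed by tissue, for example 10322 of 13701 in heart and 5295 of 19203 in eyes. The pooled count of 41 therefore cannot be read alone. The member ratios past the limit were spread unevenly, and prostate held 6 of the 9 higher ones. In prostate 6 of 8 counted members were higher in Tug1-/- mice, where 4.67% of all genes were higher and 2.05% lower past the same limit. At a 2-fold limit 1 member, Cfd, stayed higher in prostate (all genes 1.89%), and none was lower in heart (0.671%) or MEFs (0.817%). In eyes 2 of 9 were higher (all genes 2.84% higher and 3.82% lower), and in testes 1 of 8 was higher (2.34% and 2.9%). In heart 1 of 8 was lower (1.67% and 1.82%), and in MEFs 1 of 4 was lower (3.09% and 3.34%). No member was past the limit among 7 in brain (1.72% and 3%), 8 in liver (2.97% and 2.25%) and 9 in spleen (4.99% and 4.37%).

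The median log2 ratio of the counted members was 0.64 in prostate, 0.40 in testes, 0.37 in eyes, 0.20 in heart, 0.17 in liver, 0.05 in brain, −0.17 in spleen and −0.46 in MEFs. Over all genes the median was 0.04, 0.03, −0.11, 0.10, 0.01, −0.02, −0.11 and 0.05 in the same order. In spleen all 9 members had ratios below 1, but 4 of them (the C1q genes and Cfb) turned to at most 0.06 above 0 once the ratios were centred on the median of all genes. In prostate 5 members were higher with centring (all genes 4.28%), since C1qb (0.584) then lay just under the limit. Centring also moved the share of higher genes among all genes past the limit, from 42.6% to 59.6% in eyes, from 47.9% to 29.9% in heart and from 53.3% to 70.3% in spleen.

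**Figure D2:**
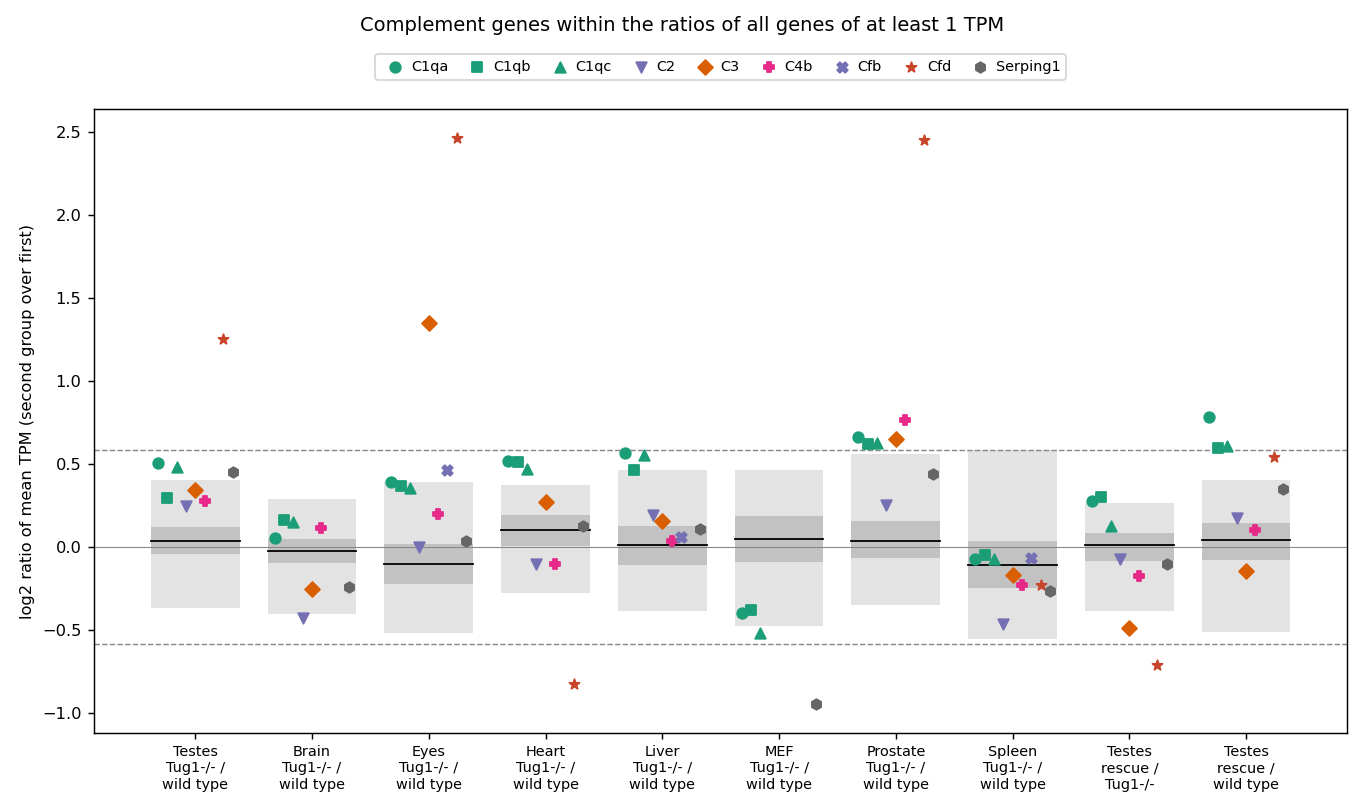
Log2 ratio of mean TPM (vertical axis) for each complement gene with a mean of at least 1 TPM in 10 comparisons of groups. Grey bars span the 5th to 95th (light) and 25th to 75th (dark) percentiles of all genes of at least 1 TPM, the black line is their median and dashed lines mark 1.5-fold; Cfd lies furthest out in eyes (2.46) and prostate (2.45), and the 3 C1q genes stay close together in every comparison.

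The 3 C1q genes differed between genotypes in the same direction within each tissue. Their mean levels were higher in Tug1-/- than in wild-type mice in 6 of 8 tissues and lower in MEFs and spleen, with the spleen direction lost on centring. In prostate C1qa was at 50.4 TPM in wild-type against 79.7 TPM in Tug1-/- mice, C1qb at 48.0 and 73.8 TPM, and C1qc at 25.4 and 39.1 TPM. These were log2 ratios of 0.66, 0.62 and 0.62, the only C1q ratios past 1.5-fold between Tug1-/- and wild type. The limit itself is 0.58, and C1qa in liver (0.57) lay just under it.

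In heart and liver the C1q ratios were also above 1. In heart C1qa was at 99.4 and 142 TPM (log2 ratio 0.51), C1qb at 88.5 and 126 TPM (0.51) and C1qc at 47.9 and 66.3 TPM (0.47). In liver C1qa was at 56.3 and 83.4 TPM (0.57), C1qb at 60.8 and 83.7 TPM (0.46) and C1qc at 31.3 and 46.0 TPM (0.55). The 95th percentile of all gene ratios was 0.37 in heart, below all 3 genes, and 0.463 in liver, below C1qa and C1qc and just above C1qb (0.460). With the heart ratios rescaled after leaving out the 20 highest genes, the C1q ratios there were 0.35 to 0.40. The median of all genes then moved from 0.10 to −0.02, so the percentile of 0.37, taken before rescaling, does not apply to them.

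Eyes, testes and brain had the same direction. In eyes C1qa was at 90.7 and 119 TPM (0.39), C1qb at 85.1 and 110 TPM (0.37) and C1qc at 46.5 and 59.5 TPM (0.35). In testes the wild-type and Tug1-/- means were 13.6 and 19.4 TPM for C1qa (0.51), 22.2 and 27.2 TPM for C1qb (0.30) and 8.37 and 11.7 TPM for C1qc (0.48). In brain, where microglia are the main source, C1qa was at 107 and 111 TPM (0.05), C1qb at 108 and 121 TPM (0.16) and C1qc at 53.7 and 59.6 TPM (0.15). MEFs had the opposite direction, with C1qa at 132 and 99.7 TPM (−0.40), C1qb at 132 and 102 TPM (−0.38) and C1qc at 66.2 and 46.2 TPM (−0.52). In spleen C1qa was at 709 and 674 TPM (−0.07), C1qb at 665 and 642 TPM (−0.05) and C1qc at 384 and 365 TPM (−0.07).

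The balance of the chains was compared over the 17 group means. C1qc was 0.464 to 0.615 of C1qa, with a median of 0.513. C1qb was 0.889 to 1.63 times C1qa, with a median of 1.003. It was 1.41 to 1.63 in the 3 testis groups and at most 1.09 in the others. The Pearson correlations of the log2 levels between pairs of C1q genes were 0.991 to 0.997 over the 17 group means, which include both genotypes of each tissue and so are not independent.

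A difference in the number of macrophages and one in the RNA per macrophage cannot be told apart in bulk tissue. The C1q levels are therefore set beside 15 macrophage and microglia markers. In prostate all 15 markers had ratios above 1 and 5 were past 1.5-fold, with sums of 266 TPM in wild-type against 394 TPM in Tug1-/- mice and a median log2 ratio of 0.42. Csf1r, the receptor that macrophages need to survive, was at 13.1 and 17.5 TPM there. In liver 14 of 14 counted markers had ratios above 1 and 3 were past 1.5-fold (sums 309 and 459 TPM, median 0.47, Csf1r 20.8 and 28.7 TPM). Thus in prostate and liver both the marker list and C1q were higher in Tug1-/- mice, and the part of macrophages in the C1q values was not tested in any tissue.

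In heart 13 of 15 markers had ratios above 1, with sums of 619 and 714 TPM, a median of 0.19 and Csf1r at 29.2 and 35.9 TPM, and 10322 of 13701 genes there also had ratios above 1. In eyes 12 of 15 had ratios above 1 (sums 1036 and 1301 TPM, median 0.25, Csf1r 42.6 and 45.0 TPM). In brain it was 9 of 15 (sums 439 and 449 TPM, median 0.05, Csf1r 57.3 and 58.4 TPM). In spleen 13 of 15 were below 1 (sums 9922 and 9128 TPM, median −0.05, Csf1r 410 and 395 TPM), as were 11831 of 16810 genes. In MEFs 10 of 14 were below 1, 3 were higher and 1 lower past 1.5-fold, with a median of −0.31 and Csf1r at 30.6 and 25.03 TPM, although the sum was higher (617 and 701 TPM) through Lyz2, the macrophage lysozyme, at 183 and 342 TPM. Marco, a scavenger receptor of macrophages, was at 0.0247 TPM in wild-type against 26.7 TPM in Tug1-/- MEFs, and at 3.56 and 25.3 TPM in liver. The C1q genes were thus abundant in fibroblast cultures that also held macrophage transcripts, and no marker of the list was listed at 0 in them.

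In testes 14 of 15 markers had ratios above 1 and 3 were past 1.5-fold in the higher direction, with a median of 0.40. The marker sum there was made up mostly of Aif1 (617 of 739 TPM in wild type and 604 of 783 TPM in Tug1-/-), which is also transcribed in male germ cells. Without Aif1, a choice made after seeing its level, the sums were 122 TPM in wild-type, 179 TPM in Tug1-/- and 169 TPM in rescue testes, and the C1q sums were 44.2, 58.3 and 69.8 TPM. Summed C1q was 4.25 to 11.01 times Csf1r over the 17 groups, lowest in Tug1-/- spleen and highest in Tug1-/- prostate. In prostate the quotient was 9.43 in wild-type and 11.01 in Tug1-/- mice, in heart 8.06 and 9.33, in liver 7.13 and 7.43, in eyes 5.22 and 6.40, in brain 4.69 and 4.99, in testes 6.13 and 6.38, in spleen 4.29 and 4.25 and in MEFs 10.8 and 9.89.

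**Figure D3:**
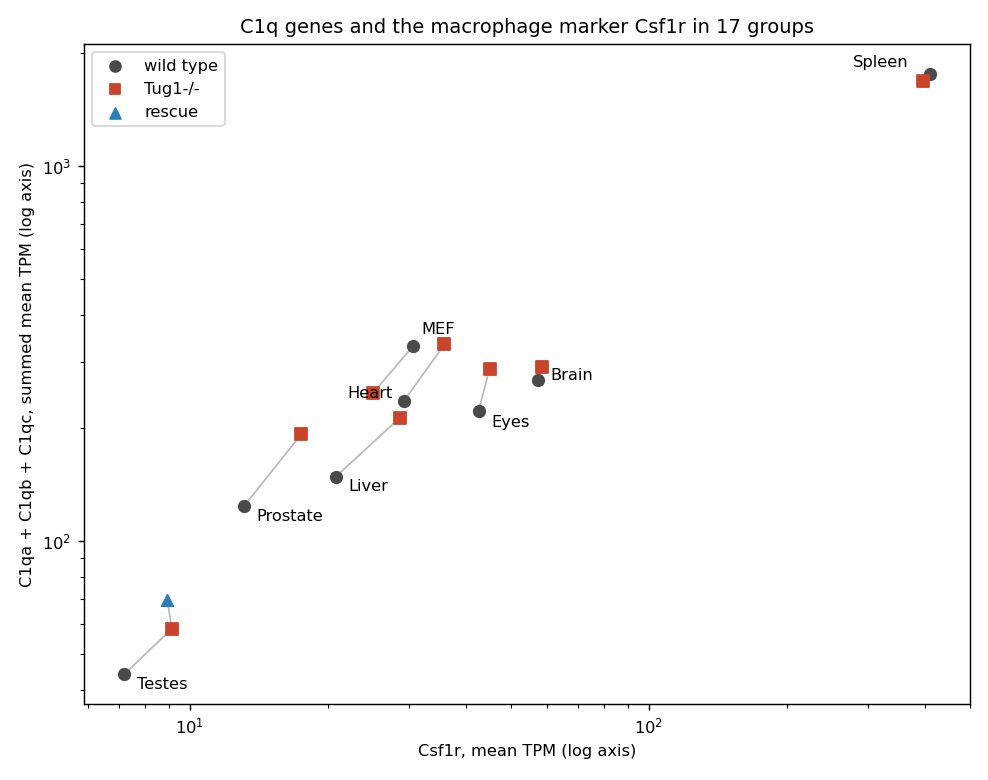
Summed mean TPM of the 3 C1q genes against the mean TPM of Csf1r (both log axes) in the 17 groups, with grey lines joining the groups of a tissue. Circles are wild type, squares Tug1-/- and the triangle rescue testes. Both are lowest in wild-type testes (7.21 TPM of Csf1r and 44.2 TPM of C1q) and highest in wild-type spleen (410 and 1759 TPM). Between these the order is not strict, since wild-type MEFs (30.6 and 330 TPM) have more C1q than wild-type eyes (42.6 and 222 TPM). Within MEFs both are lower in Tug1-/-.

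Cfd, the factor D gene, had the largest ratios among the members, and their direction differed between organs. In eyes it was at 89.2 TPM in wild-type against 492 TPM in Tug1-/- mice, 5.52 times the wild-type mean (log2 ratio 2.46), which ranked 12th from the top of 19203 genes. In prostate it was at 66.2 and 361 TPM, 5.46 times (2.45), 56th of 15110 genes. In testes it was at 5.54 and 13.4 TPM, 2.41 times (1.25), 104th of 21813 genes. In heart, by contrast, it was at 135 and 76.3 TPM, 0.564 of the wild-type mean (−0.83), 147th from the bottom of 13701 genes. In spleen it was at 5.14 and 4.37 TPM (−0.23). In liver it was at 0.698 and 0.103 TPM, under the level at which ratios were counted. The mean normalized counts behind Cfd were 3790 in eyes, 2238 in prostate, 1983 in heart, 65.8 in spleen and 6.70 in liver.

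In eyes, prostate and heart, adipocyte markers differed in the same direction as Cfd. In eyes 9 of 10 adipocyte genes were past 1.5-fold in the higher direction and Ucp1, the brown fat uncoupler, in the lower, with a median log2 ratio of 1.43 and sums of 348 and 856 TPM. Adipoq, the fat cell hormone adiponectin, was at 30.7 and 91.4 TPM, Plin1, a coat protein of lipid droplets, at 10.54 and 30.3 TPM, and Cidec, another droplet protein, at 21.9 and 97.4 TPM. In prostate 8 of 8 counted adipocyte genes were higher past the limit, with a median of 1.95 and sums of 83.5 and 341 TPM. There Adipoq was at 9.65 and 42.7 TPM, Plin1 at 2.66 and 9.89 TPM, and Cidec at 11.5 and 55.5 TPM. In heart 7 of 9 were lower past the limit and none was higher, with a median of −0.98, sums of 567 and 449 TPM, Adipoq at 32.2 and 14.5 TPM and Plin1 at 10.3 and 4.66 TPM. The part of fat tissue in the Cfd values was not tested.

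Testes, spleen and liver were less clear. In testes 4 of 7 counted adipocyte genes were past 1.5-fold in the higher direction (median 0.61), among them Car3, a carbonic anhydrase abundant in fat, at 2.74 and 9.98 TPM, while Adipoq was at 23.7 and 23.3 TPM. In spleen 3 adipocyte genes were counted and the sums were 15.6 and 16.4 TPM, with a median of −0.36 and Adipoq, at 1.69 and 0.762 TPM, lower past the limit. In liver 3 of 4 counted adipocyte genes had ratios above 1 and 1 was lower past the limit (median 0.29, sums 5741 and 4900 TPM). Plin1, Lep, Retn and Ucp1 had no row in liver, and Cfd was under the counted level and lower in Tug1-/- mice. Adipoq had no row in brain, liver or MEFs, and Cfd had none in brain and MEFs. Across the 17 group means the genes most like Cfd were Plin1 (Pearson r of log2 levels 0.952) and Retnla (0.939), out of 22374 genes with a largest mean of at least 5 TPM, with absent rows taken as 0.

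**Figure D4:**
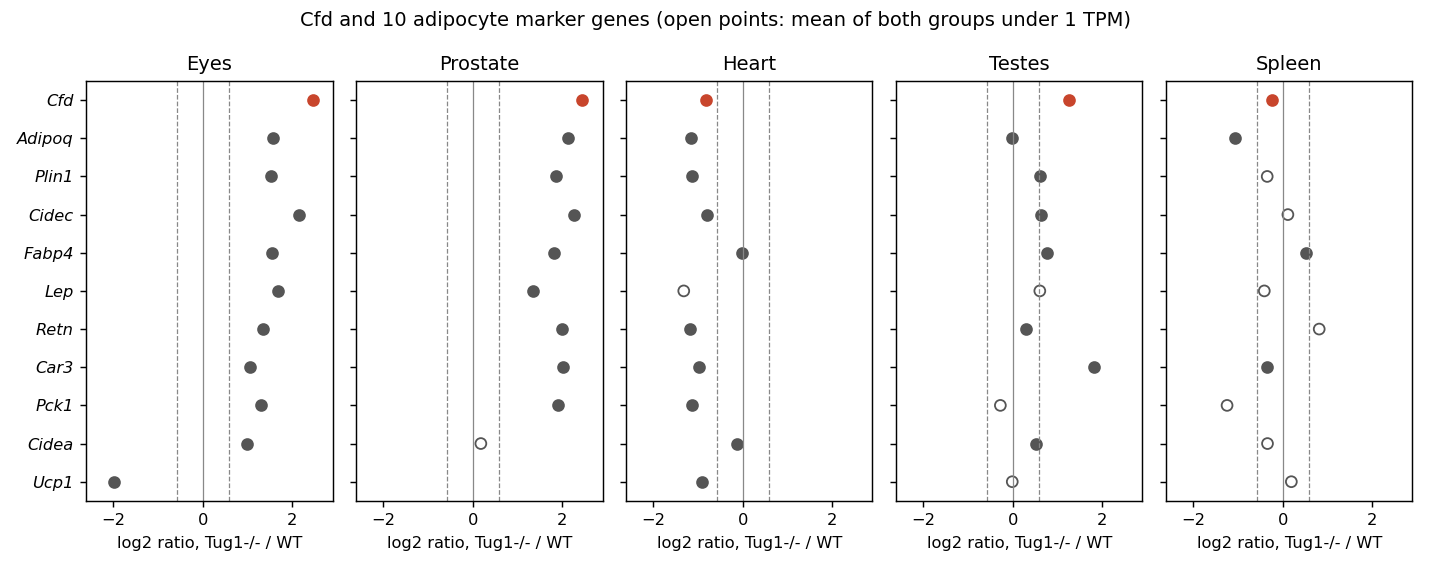
Log2 ratio of the Tug1-/- over the wild-type mean TPM (horizontal axis) for Cfd (red) and 10 adipocyte marker genes (grey) in 5 tissues. Dashed lines mark 1.5-fold and open points a mean of both groups under 1 TPM; Cfd lies with the adipocyte genes to the right in eyes and prostate and to the left in heart, and in testes it lies right of all of them but Car3.

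C3 was the second member with a large difference in eyes, at 30.8 TPM in wild-type against 78.3 TPM in Tug1-/- mice (2.55 times, log2 ratio 1.34), 68th from the top of 19203 genes. In prostate it was at 37.3 and 58.7 TPM (0.65). In heart it was at 160 and 193 TPM (0.27), in testes at 16.3 and 20.7 TPM (0.34) and in liver, its main source, at 3216 and 3581 TPM (0.16). It was lower in spleen, at 601 and 533 TPM (−0.17), and in brain, at 1.12 and 0.922 TPM (−0.25). In MEFs it was at 0.424 and 1.30 TPM, with a mean under 1 TPM and so not counted. Of 10 acute phase genes, liver and fat products that respond to inflammation and that are often induced with C3, 5 of 6 counted were higher past the limit in prostate (median 1.29), 3 of 6 in eyes (0.53), 4 of 6 in testes (0.64) and none in heart, where 2 of 5 were lower. In liver 2 of 10 were higher, in MEFs 2 of 4, in spleen 2 of 6 and in brain none of 2. Hp, haptoglobin, was at 20.9 and 81.1 TPM in eyes and 9.24 and 35.2 TPM in prostate.

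C4b and C2 carry the classical pathway on from C1q. C4b was past the limit in prostate only, at 7.14 and 12.2 TPM (0.77). Elsewhere it was at 70.3 and 80.7 TPM in eyes (0.20), 15.1 and 18.3 in testes (0.27), 12.1 and 13.1 in brain (0.11), 381 and 391 in liver (0.04), 21.5 and 19.9 in heart (−0.11) and 118 and 101 in spleen (−0.23). C2 was not past the limit in any tissue, and its lowest ratio was in spleen, at 17.3 and 12.5 TPM (−0.47). In brain C2 was at 1.27 and 0.914 TPM (−0.43) with 21.00 mean normalized counts behind it. Its other values were 6.04 and 7.18 TPM in testes (0.25), 2.76 and 3.31 in prostate (0.25), 30.7 and 35.1 in liver (0.19), 2.30 and 2.13 in heart (−0.10) and 15.8 TPM in both eye groups. C2 in MEFs was under 1 TPM.

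Cfb, the alternative pathway protease that factor D cleaves, was counted in 3 tissues, at 54.7 and 56.9 TPM in liver (0.06), 10.2 and 9.71 in spleen (−0.07) and 1.18 and 1.66 in eyes (0.46). In prostate, where Cfd was 5.46 times the wild-type mean, Cfb was at 0.435 and 0.422 TPM, and in heart and testes it was also too low to be counted. Eyes were therefore the only tissue in which Cfd was past the limit and Cfb was counted, with both ratios above 1.

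Serping1, the inhibitor of C1, was past the limit in MEFs only, at 8.53 TPM in wild-type against 4.37 TPM in Tug1-/- cells (−0.95), 132nd from the bottom of 14450 genes and in the same direction as the 3 C1q genes there. In testes it was at 36 and 49.2 TPM (0.45) and in prostate at 106 and 144 TPM (0.44). The other ratios were closer to 1, at 201 and 206 TPM in eyes (0.04), 134 and 146 in heart (0.13), 720 and 776 in liver (0.11), 14.6 and 12.4 in brain (−0.24) and 201 and 167 in spleen (−0.27). Fibroblast markers, whose cells also make Serping1, had medians of −0.22 in MEFs, 0.13 in testes and 0.36 in prostate (8 of 8 with ratios above 1). Elsewhere their medians were 0.24 in liver, 0.02 in heart, −0.06 in eyes, −0.09 in brain and −0.29 in spleen. The part of fibroblasts in the Serping1 values was not tested.

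The remaining lists of cell types and programs were set beside the members once. Of 13 interferon-stimulated genes, 4 of 12 counted were higher past the limit in MEFs (median 0.47), 4 of 13 in prostate (0.26), 2 of 10 in testes (0.29), 1 of 12 in liver (0.12) and none in brain, eyes and heart, while in spleen 2 of 13 were higher and 2 lower. B cell markers were lower past the limit in heart (5 of 5, sums 43.4 and 19.8 TPM) and had sums of 4655 and 3503 TPM in spleen. T cell markers had sums of 402 and 374 TPM in spleen and of at most 8.33 TPM in other groups. Of 6 Kupffer and red pulp macrophage markers, 2 of 5 counted were higher in liver (sums 201 and 270 TPM) and none of 5 in spleen (957 and 944 TPM).

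The Tug1 transgene was tested in testes, where the rescue mean was compared with the Tug1-/- and the wild-type means. All of these comparisons share groups, so the 3 means are given side by side. Cfd was at 5.54 TPM in wild-type, 13.4 in Tug1-/- and 8.12 TPM in rescue testes, a rescue over Tug1-/- log2 ratio of −0.71. This was the only member of 8 past 1.5-fold between rescue and Tug1-/- (all genes 1.04% higher and 2.56% lower), and rescue lay between the other means. C3 had means of 16.3, 20.7 and 14.7 TPM, with rescue below both. C4b (15.1, 18.3 and 16.2 TPM), C2 (6.04, 7.18 and 6.81 TPM) and Serping1 (36, 49.2 and 45.8 TPM) had rescue means between the other means. Between rescue and Tug1-/- testes 2 of 7 counted adipocyte markers were lower past the limit and none was higher (sums 58.9 and 51.1 TPM), and 2 of 5 acute phase genes were lower and none higher (sums 367 and 175 TPM). Their part in the Cfd and C3 values was not tested.

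The C1q genes had another order, with rescue highest. C1qa was at 13.6 TPM in wild-type, 19.4 in Tug1-/- and 23.5 in rescue testes, C1qb at 22.2, 27.2 and 33.5 TPM and C1qc at 8.37, 11.7 and 12.8 TPM. Of the 15 macrophage markers, 11 had rescue over Tug1-/- ratios below 1 and none was past the limit (median −0.04), and summed C1q was 7.81 times Csf1r in rescue against 6.38 times in Tug1-/- testes. Between rescue and wild type these 3 of 8 members were past the limit (0.78, 0.59 and 0.60), beside 2.27% of all genes higher and 4.33% lower. The count was 1 with a pseudocount of 1 TPM (all genes 1.18% higher) or with centring (1.86%), since C1qb and C1qc lay just past the limit. Cfb was under 0.5 TPM in all 3 testis groups.

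A wider list of 43 complement genes covers initiators, terminal components, regulators and receptors. Past 1.5-fold in the higher and the lower direction in Tug1-/- mice were 5 and 0 of 24 counted genes in prostate (all genes 4.67% and 2.05%), 4 and 0 of 34 in liver (2.97% and 2.25%), 3 and 2 of 25 in spleen (4.99% and 4.37%) and 2 and 1 of 23 in eyes (2.84% and 3.82%). In heart they were 2 and 0 of 23 (1.67% and 1.82%), in MEFs 1 and 3 of 16 (3.09% and 3.34%), in testes 1 and 2 of 26 (2.34% and 2.9%) and in brain 1 and 0 of 18 (1.72% and 3%). The medians in the same order were 0.26, 0.11, −0.22, 0.21, 0.13, 0.04, 0.08 and 0.00494. The terminal pathway genes, which form the membrane attack complex, had no gene past the limit in any tissue, and in liver their sums were 2782 and 2846 TPM.

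Cd59b, a membrane protein that blocks the membrane attack complex, was past the limit in the higher direction in 7 of 8 tissues, and is given in full, a choice made after its values were seen. Its means in wild-type and Tug1-/- mice were 1.97 and 5.00 TPM in brain, 3.09 and 7.04 in eyes, 3.33 and 7.16 in heart, 5.77 and 9.04 in liver, 1.11 and 2.04 in MEFs, 1.23 and 2.44 in prostate and 1.79 and 5.80 in spleen. In testes, its highest tissue, it was at 19.0 and 20.03 TPM. Its close copy Cd59a was past the limit in spleen only (12.9 and 19.9 TPM) and was at 28.5 and 23.5 TPM in brain, 78.4 and 90.7 TPM in eyes and 74.0 and 88.8 TPM in heart. Reads shared by both copies were not counted, so each level is uncertain.

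**Figure D5:**
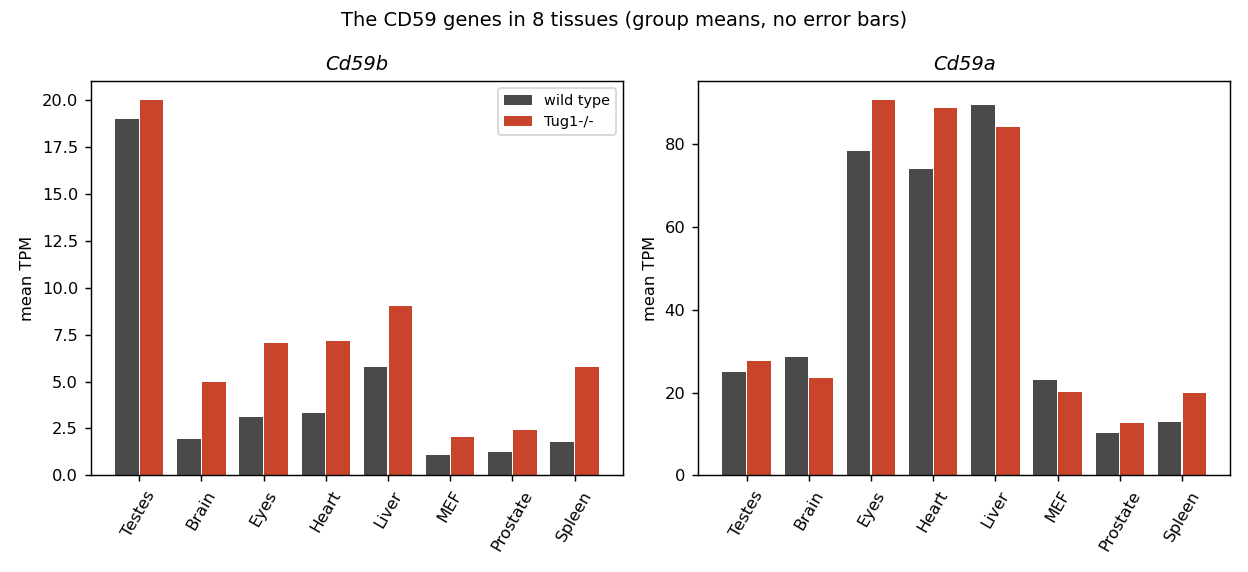
Mean TPM of Cd59b (left) and Cd59a (right) in wild-type (grey) and Tug1-/- (red) groups of 8 tissues, with bars from 0 and no error bars because the values used here are group means. Cd59b is higher in Tug1-/- in every tissue, with the smallest ratio in testes (19.0 and 20.03 TPM), while Cd59a is lower in Tug1-/- brain (28.5 and 23.5 TPM).

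Further genes of the wider list past the limit are given by tissue. In testes C4bp, the inhibitor that binds C4b, was at 29.8 TPM in wild-type, 0.380 in Tug1-/- and 0.201 TPM in rescue mice, and Masp1 and Cpn1 were at 0.783 and 1.33 TPM and at 7.90 and 5.18 TPM. In prostate clusterin (Clu), which binds terminal complexes, was at 45.7 and 145 TPM, and C5ar1, the receptor for the C5a peptide, at 1.34 and 2.54 TPM. Clu was also past the limit in MEFs, in the lower direction (13.9 and 8.04 TPM). In eyes ficolin A (Fcna), a lectin that starts the lectin pathway, was at 4.09 and 11.3 TPM (in prostate 12.3 and 19.4 TPM) and Cfi, which inactivates C3b, at 2.01 and 1.103 TPM. In spleen ficolin B (Fcnb) was at 6.16 and 18.5 TPM and Cd46, a cofactor for Cfi, at 3.11 and 1.91 TPM.

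In liver C4a was at 5.45 and 10.8 TPM, the integrin subunit Itgb2 at 4.10 and 7.06 TPM and properdin (Cfp), which holds the alternative convertase together, at 18.5 and 30.2 TPM. In MEFs the regulator Cd55 (4.56 and 2.52 TPM) was lower past the limit, as Serping1 was. In heart C5ar2 was at 1.29 and 2.04 TPM. Between rescue and Tug1-/- testes none of 25 counted genes was past the limit in either direction, and between rescue and wild type C4bp was the only one. The lowest rescue over Tug1-/- ratio, −0.49, was in the terminal pathway list, whose highest Tug1-/- over wild-type ratio in testes was 0.44. The paper lists C7, of that pathway, as significantly changed in both comparisons, in opposite directions. The 1.5-fold limit leaves out such smaller differences.

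Likeness of pattern was also ranked for the other members over the same 17 group means. The genes most like C2 were Cyp39a1 (r = 0.954) and Fgfr4 (0.940), and those most like C3 were BC023105 (0.968) and C1s1 (0.953). For C4b they were Sult1a1 (0.946) and Cyp27a1 (0.935), for Cfb Sucnr1 (0.978) and Gm4951 (0.978), and for Serping1 C1s1 (0.952) and C3 (0.943). Each of the C1q genes was most like the other two. Between members, Cfd had r of at most 0.49 with any other member, and C1q genes had r of 0.033 to 0.332 with C2, C3, C4b, Cfb and Serping1. These values share tissues and libraries and rest mostly on differences between tissues.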

How the data were processed

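Poly(A) RNA was sequenced in bulk (TruSeq libraries, paired-end). The authors mapped reads to GRCm38 (STAR), took the uniquely placed reads of each GENCODE vM16 gene (featureCounts), and dropped a gene whose count stayed below 3 reads in all replicates. CASAVA 1.8.2 is named in the submitters' processing notes. The authors deposited mean TPM per group, in 1 table for testes and in another for the other 7 tissues. In the latter the authors stacked the tissues, so its mean TPM columns sum past the TPM total and were handled as a signal, tissue by tissue. The authors also deposited a mean normalized count per gene and tissue there. Fold changes, standard errors and p-values of the authors' own comparisons were in the tables and were not used. The values used here are group means, so no test was run and no value has an error. The 6 F1 hybrid testis samples, of 52 listed, were not analysed here.

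Ratios were log2((second mean + 0.1)/(first mean + 0.1)), counted at a mean of both groups of at least 1 TPM and called past 1.5-fold, with Python 3.11.15, numpy 2.4.6, pandas 2.3.3 and matplotlib 3.10.9. The code was tested on simulated data. A gene name with 2 identifiers was taken at the one with the higher mean. All 9 members were named, with up to 3 genes per comparison of the wider complement list (the largest ratios past the limit), and the 2 genes most like each member. Not every gene that this rule names is reported here. Single markers in the cell type, acute phase and tissue checks, Cd59a, Cd59b, C4a, Clu in MEFs and Fcna in prostate were named after their values were seen. C7 was named because the paper lists it. Members, lists and limits were chosen with earlier results of these data known. Levels in testes and in the other tissues came from separate tables.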

Additional observations from a re-analysis of the deposited data

How the results depend on the processing

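No paired analysis was possible because the values used here are group means, and for the same reason no sample could be left out. Each choice was changed alone: a pseudocount of 1 or 0.01 TPM, no minimum level or a minimum mean of 5 TPM, centring on the median ratio, rescaling without the 20 highest genes, and a 2-fold limit. As the standard errors in the tables were not used, a shift of 0.1 on the log2 scale was taken as the tolerance. Of 308 single member ratios recomputed, 39 moved by 0.1 or more and no ratio past the limit changed sign. At 2-fold, 1 member stayed higher in prostate, and 0 were lower in heart, 0 lower in MEFs, 0 lower between rescue and Tug1-/- and 0 higher between rescue and wild type. Centring left 5 higher in prostate (all genes 4.28%). Between rescue and wild type, 1 was higher with a pseudocount of 1 TPM (all genes 1.18%) and 1 with centring (1.86%). With no minimum level, 1 was lower in liver (Cfd, beside 4.20% of all genes), 1 was higher in MEFs (C3, beside 5.85%) and the MEF median was −0.35. Rescaling also gave 1 higher in MEFs (beside 3.17% of all genes), where C3 then reached 1 TPM. Centring moved the median to 0.47 in eyes, 0.096 in heart and −0.0646 in spleen, and rescaling moved it to 0.0812 in heart. The cause was not tested where none is named.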

Other observations

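The members were close to the limit in several tissues, which the counts alone do not show. Past 1.5-fold by less than 0.1 on the log2 scale were C1qa, C1qb, C1qc and C3 in prostate (0.66, 0.62, 0.62 and 0.65). Within the limit by less than 0.1 were C1qa (0.51) and C1qb (0.51) in heart, C1qa (0.57) and C1qc (0.55) in liver, C1qa in testes (0.51) and C1qc in MEFs (−0.52).

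Prostate also transcribed C1rb and C1s2, copies of the genes for C1r and C1s, the proteases that C1q carries. Whether the products of these copies join C1q was not tested. C1rb was at 4099 TPM in wild-type against 4229 TPM in Tug1-/- prostate, and at 0.319 TPM or less in the Tug1-/- and wild-type means of other tissues, while C1s2 was at 2190 and 1654 TPM in prostate. C1ra was at 25.6 and 26.1 TPM and C1s1 at 29.5 and 39.7 TPM there.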
